A study of Mus musculus with 6 samples.

Results

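The miR-30 family was followed here through 6 mature miRNA names chosen by name from the series count table, out of 707 names in all. They were 4 arms cut from the 5′ side of their hairpins (mmu-miR-30a-5p, mmu-miR-30c-5p, mmu-miR-30d-5p and mmu-miR-30e-5p) and 2 arms cut from the 3′ side (mmu-miR-30e-3p and mmu-miR-30c-1-3p). The table holds small RNA counts from exosomes, vesicles that cells release, in the supernatant of macrophages grown from bone marrow. There were 3 Roquin-1 san:san samples and 3 wild-type (WT) samples, all of the C57BL/6 strain, with no other treatment that separates the groups in the labels. Roquin-1 binds stem-loop structures of certain messenger RNAs, which are then degraded, and san denotes its sanroque allele, carried here on both copies. The labels give no age or sex. They also do not say if a replicate is its own mouse, culture or technical repeat, and the p-values reflect whatever spread that gives.

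A miRNA hairpin yields a short duplex, of which 1 strand, the guide, is usually kept by an Argonaute protein and the other, the minor arm, is usually degraded. The guide finds messenger RNAs through its seed, and miRNAs with the same seed can repress the same targets. In the miR-30 family the 5p arm is generally taken as the guide. These miRNAs are found in many tissues, and miR-30a is known for repressing Beclin 1, a protein that starts autophagy.

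The mature sequences show which names share a seed and how little else separates them. RefSeq on GRCm38.p6 held 5 of the 6 members, printed 5′ to 3′ with the seed (bases 2 to 8) in capitals.
miR-30a-5p: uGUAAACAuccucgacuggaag
miR-30c-5p: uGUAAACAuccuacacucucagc
miR-30e-5p: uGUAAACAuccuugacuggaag
miR-30e-3p: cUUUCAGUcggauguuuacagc
miR-30c-1-3p: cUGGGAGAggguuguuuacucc
The 5p arms share the seed GUAAACA. The 3p arms have different seeds from the 5p arms and from each other. miR-30a-5p and miR-30e-5p differ by a single base of 22, C13U (positions counted from 1 at the 5′ end of miR-30a-5p), and miR-30c-5p matches both over its first 12 bases. The mismatches allowed in the authors' alignment were not known here, so reads may be split between such close names, and the counts of miR-30a-5p, miR-30d-5p and miR-30e-5p are uncertain in that respect. miR-30d-5p is described by its name and values.

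Both hairpins with 2 members lie on the minus strand of chromosome 4 in GRCm38.p6, within introns of Nfyc in the GENCODE annotation of that assembly. Mir30c-1 is at chr4:120769534-120769622 and Mir30e at chr4:120772606-120772697, with 2983 bases between them. Their sequences are shown with both mature arms in capitals, since the results turn on how the arms of these neighbours differ.
Mir30c-1: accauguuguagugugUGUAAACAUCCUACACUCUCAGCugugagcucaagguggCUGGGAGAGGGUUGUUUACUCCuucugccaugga
Mir30e: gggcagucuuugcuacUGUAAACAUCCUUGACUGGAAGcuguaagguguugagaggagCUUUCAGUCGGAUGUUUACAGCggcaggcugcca
Mir30a, at chr1:23272269-23272339, and Mir30c-2, at chr1:23291701-23291784, lie on the plus strand of chromosome 1. Mir30c-1 and Mir30c-2 both encode the same miR-30c-5p, so its counts cannot be assigned to either hairpin.

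The san:san libraries held 185901, 160588 and 126098 miRNA counts, against 12447, 28884 and 21754 in WT, so every san:san library was deeper than every WT library. A single count was worth 6.31 to 10.2 CPM (a count relative to its library's total, after TMM scaling of the libraries) in san:san and 27.8 to 69.5 CPM in WT. Depth therefore moved with the genotype, and its part was looked at only by thinning all libraries to 12447 counts. Of the miR-30 names, miR-30c-5p and miR-30e-3p alone could be tested after thinning. Arm ratios and shares were not thinned, so the part of depth in those, and in the other names, was not tested. Markers of several cell types, macrophages included, moved with the genotype too. Among all 254 tested miRNAs, 34.6% were higher in san:san and 29.5% lower (edgeR adjusted p under 0.05). The marker lists were chosen with earlier results of these data known. All 5 names on the erythroid list were tested and 4 were higher (2 of these, miR-486a-5p and miR-486b-5p, have identical counts). The list held 15.6% to 17.9% of san:san counts, against 3.84% to 6.25% of WT counts. These shares sum both identical rows, so the same reads may be counted more than once. Both endothelial names were higher (3.37% to 6.96% of san:san counts, against 1.82% to 3.69% of WT counts), and of 6 tested macrophage and myeloid names 5 were higher (10.4% to 12.0% against 5.23% to 6.19%). The lymphocyte miRNA miR-150-5p was higher at 1.38% to 1.92%, against 0.409% to 0.492% in WT, whereas the liver miRNA miR-122-5p did not pass (0.420% to 0.580% against 0.501% to 0.699%). Epithelial names were not tested, with at most 0.0138% of any library, and in WT 5 of the 6 in the table were at 0 in all libraries; muscle names were not tested either, with at most 0.0312%. The part of these cells in the miR-30 results was not tested. The libraries give relative counts, so fewer vesicles from a cell type and less of a miRNA per vesicle cannot be told apart.

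The 2 members that passed the test moved in opposite directions: the 5p arm miR-30c-5p was higher in san:san, and miR-30c-1-3p, the opposite arm of a miR-30c hairpin, was lower. Of the 6 members, 5 passed the filter on low counts. Of these, 1 was higher, 1 was lower and 3 did not pass edgeR's quasi-likelihood test at an adjusted p under 0.05. Over all 254 tested miRNAs, 34.6% were higher and 29.5% were lower, which the 1 of 5 members in each direction does not exceed. The median log2 fold change of the 5 members was 0.31, against 0.30 over all tested miRNAs.

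**Figure D1:**
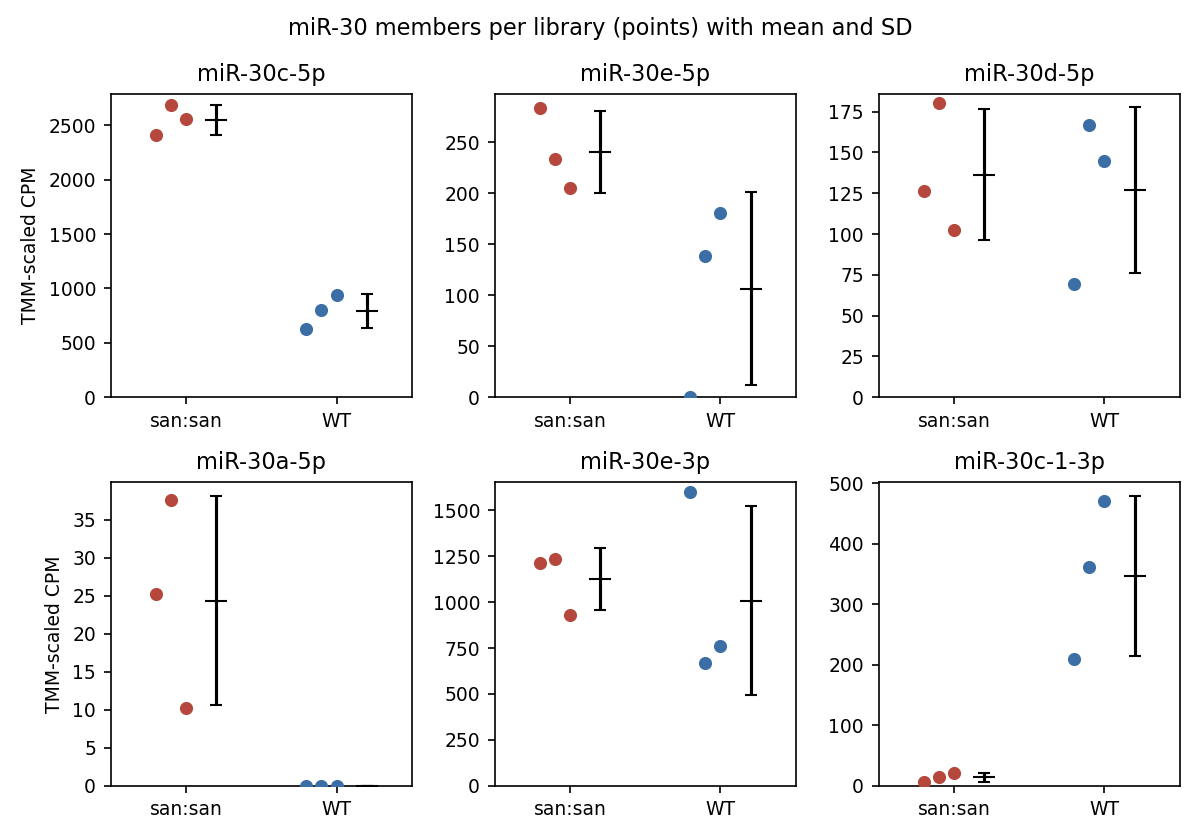
TMM-scaled CPM (vertical axes, each with its own range from 0) of the 6 members in each san:san and WT library (points), with the mean and SD beside them (n = 3 per genotype). The san:san points lie above the WT points for miR-30c-5p and below them for miR-30c-1-3p, and the groups overlap for miR-30d-5p and miR-30e-3p.

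mmu-miR-30c-5p was the most abundant 5p member in every library. It had 382, 357 and 250 counts in san:san, against 9, 29 and 26 counts in WT. On the TMM scale it stood at 2409, 2686 and 2561 CPM in san:san, against 626, 805 and 942 CPM in WT. The genotypes did not overlap. Of all 254 tested miRNAs, 39.8% were likewise higher in san:san without overlap. The means were 2552 ± 139 CPM in san:san and 791 ± 158 CPM in WT (SD, n = 3 each), and the log2 fold change was 1.65 ± 0.23 (SE, edgeR adjusted p = 2.87e-05), a 3.13-fold higher level. By mean CPM it ranked 54 of 707 names in san:san and 116 in WT.

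mmu-miR-30e-5p, encoded beside miR-30c in Nfyc, had 45, 31 and 20 counts in san:san, against 0, 5 and 5 in WT. In CPM this was 284, 233 and 205 in san:san, against 0, 139 and 181 in WT. The values did not overlap, but the 2 highest WT libraries rest on 5 counts each, and WT replicate 1, with 0, could have held up to 209 CPM (3 counts, for counting error only). The difference did not pass, at log2 0.94 ± 0.57 (SE, edgeR adjusted p = 0.166).

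mmu-miR-30d-5p had 20, 24 and 10 counts in san:san, against 1, 6 and 4 in WT. The CPM values, 126, 181 and 102 in san:san against 69.5, 167 and 145 in WT, overlapped. Its log2 fold change was -0.02 ± 0.52 (SE, edgeR adjusted p = 0.977), and a change of the size of this SE would not have been detectable at this depth.

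mmu-miR-30a-5p, the member known for Beclin 1, was close to the limit of detection. It had 4, 5 and 1 counts in san:san and 0 in each WT library, and it did not pass the count filter. Pooled over libraries without scaling it stood at 21.2 CPM in san:san, and the 0 of 63085 WT counts allow up to 47.6 CPM. A difference was not detectable at this depth.

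Among the other names of the family in the table, miR-30b-5p had 81, 81 and 48 counts in san:san, against 1, 13 and 12 in WT. It did not pass, at log2 0.72 ± 0.36 (SE, edgeR adjusted p = 0.0995). miR-384-5p, which has the same seed in RefSeq, is not a name in the table. The 3p arm miR-30b-3p had 3, 2 and 3 counts in san:san, against 2, 2 and 3 in WT, and did not meet the count filter. In CPM this was 15.0 to 30.7 in san:san, against 55.5 to 139 in WT. DESeq2, fitted without that filter, gave log2 -2.35 for it, which did not pass (adjusted p = 0.0847). miR-30d-3p had 4 counts over the san:san libraries and 1 over the WT libraries, too few to compare.

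mmu-miR-30e-3p was the more abundant arm of its hairpin in all 6 libraries, so calling it the minor arm goes against these counts. Reads of miR-30e-5p may be split with close names, as said above, and counts do not show which arm is the guide. miR-30e-3p had 192, 164 and 91 counts in san:san, against 23, 24 and 21 in WT. Those are 1211, 1234 and 932 CPM in san:san, against 1599, 666 and 761 CPM in WT. The genotypes overlapped because WT replicate 1 held the highest value of all 6. The log2 fold change was 0.31 ± 0.30 (SE, edgeR adjusted p = 0.372). miR-30a-3p, which has the same seed and differs from it by G18A (miR-30a-3p first, positions from its 5′ end), had 29, 19 and 17 counts in san:san, against 3, 4 and 3 in WT. It did not pass either, at log2 0.36 ± 0.50 (SE, edgeR adjusted p = 0.531).

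mmu-miR-30c-1-3p was nearly absent from san:san libraries. It had 1, 2 and 2 counts in san:san, against 3, 13 and 13 in WT, although the WT libraries were the shallower ones. In CPM it stood at 6.31, 15.0 and 20.5 in san:san, against 209, 361 and 471 in WT. The genotypes did not overlap. Of all 254 tested miRNAs, 31.1% were likewise lower in san:san without overlap. miR-30c-1-3p fell by 4.66 ± 0.56 on the log2 scale (SE, edgeR adjusted p = 8.02e-06), a level 25.3-fold higher in WT. The miRNA met the count filter through its WT libraries alone, so a low value in WT would have left it untested. Pooled over libraries without scaling it stood at 10.6 CPM in san:san (exact 95% Poisson interval 3.44 to 24.7), against 460 in WT (308 to 660); these intervals cover counting error only.

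A feature that the names did not use is the base composition of miR-30c-1-3p. It has 54.5% G and C, the highest of the 5 members with a sequence, which otherwise had 40.9% to 45.5%. It also holds GGAG, a motif known, in human T cells, from the sorting of miRNAs into exosomes by the protein hnRNPA2B1, within its seed UGGGAGA; the motif was looked for after the values were seen, as these 4 letters on the miRNA strand, and none of the other 4 sequences holds it. Of 573 names in the table with a RefSeq sequence, 13.8% hold GGAG. The motif was in 20 of 54 lowered miRNAs with a sequence, in 3 of 76 raised ones and in 3 of 78 that did not pass. Median GC content was 54.5% in the lowered miRNAs, 45.5% in the raised ones and 47.7% in those that did not pass. Motif and composition thus move together, and neither was tested as a cause. miR-30c-2-3p, which has the same seed and also holds GGAG, had 1 count over the san:san libraries and 1 over the WT libraries, too few to compare.

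**Figure D2:**
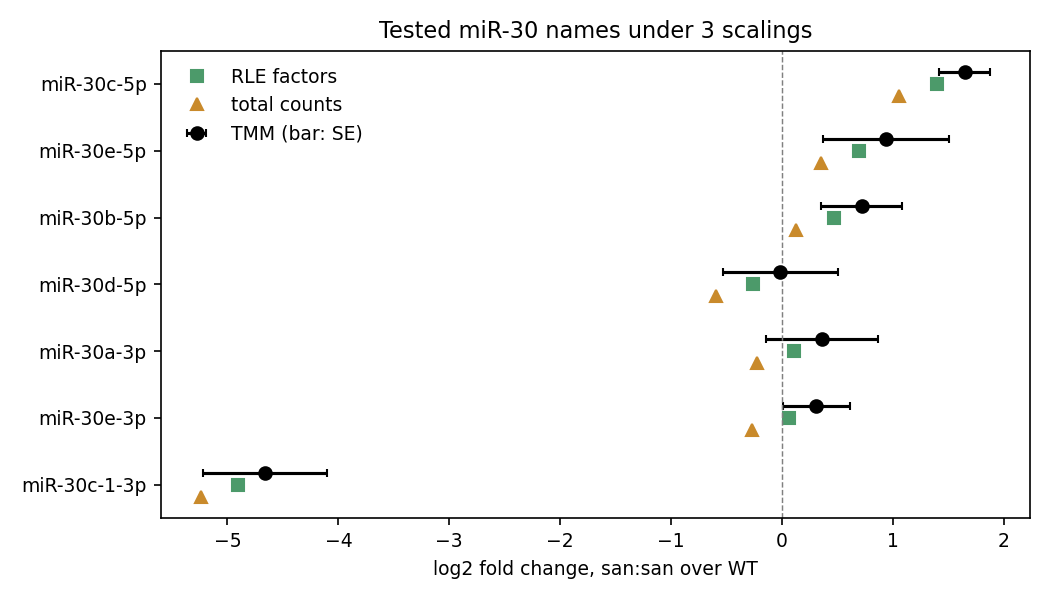
Log2 fold change of san:san over WT (horizontal axis) for the 7 tested miR-30 names under 3 scalings of the libraries, with SE bars for TMM. miR-30c-5p lies right of 0 and miR-30c-1-3p left of 0 under TMM, RLE factors and total counts, whereas miR-30e-3p and miR-30a-3p fall below 0 with total counts.

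Scaling the libraries another way shifted the median log2 fold change of all tested miRNAs, which was 0.30 with TMM, 0.04 with RLE factors and -0.29 with total counts. Relative to that median, miR-30c-5p lay 1.35 above it with TMM, 1.36 above it with RLE factors and 1.35 above it with total counts. The corresponding values of miR-30c-1-3p were -4.96, -4.95 and -4.95. miR-30e-3p lay 0.01, 0.02 and 0.02 above the median, and miR-30d-5p at -0.31, -0.30 and -0.31. Another scaling shifts all names by nearly the same amount, so these distances could hardly have differed. Their likeness is therefore no check of the members.

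The arms of the miR-30c hairpin were compared within libraries. Scaling plays no part in the raw count ratios, whereas the pseudocount of the log2 ratios follows the library total. There were 382, 178.5 and 125 counts of miR-30c-5p for each count of miR-30c-1-3p in san:san, against 3, 2.23 and 2 in WT. Every san:san library thus lay far above every WT library. Over all libraries of a genotype, the arms had 989 and 5 counts in san:san, against 64 and 29 counts in WT. With a pseudocount scaled by library total (1 count on average), the log2 ratio was 6.58 ± 0.38 in san:san and 1.22 ± 0.29 in WT (SD, n = 3 each), a difference of 5.35 (two-sided exact permutation p = 0.1; groups of 3 cannot give a smaller one). With a pseudocount of 1 count in every library, the difference was 5.83. WT replicate 1 had fewer than the 20 counts that the limma test of arm ratios required. A count test of arm by genotype (edgeR), requiring 10 counts per library, was added after the counts were seen. It gave log2 6.30 ± 0.67 (SE, adjusted p = 1.31e-17), and 35.4% of its 82 hairpins passed. Its spread estimate is shared over hairpins, and the san:san 3p arm rests on 5 counts. The small p-value therefore does not measure the spread between libraries. Without WT replicate 1 the limma test could be made and also passed, at log2 5.62 (adjusted p = 6.19e-04). Since Mir30c-2 encodes the same 5p sequence, the ratio is that of the names and cannot be assigned to the Mir30c-1 hairpin alone.

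The neighbouring miR-30e gave a different picture. Its 5p over 3p count ratio was 0.234, 0.189 and 0.220 in san:san, against 0, 0.208 and 0.238 in WT. Aside from WT replicate 1, where 0 counts of miR-30e-5p stood against 23 of miR-30e-3p, the libraries of both genotypes lay close together. The log2 difference in ratio was 1.70 ± 1.39 (SE, limma adjusted p = 0.338), and 43.1% of the 58 hairpins tested this way passed. It was -0.06 (adjusted p = 0.899) without WT replicate 1, so its direction rests on that library. It was 0.65 (adjusted p = 0.456) with a pseudocount of 1 count and 0.55 (adjusted p = 0.522) in the edgeR test of arm by genotype. For miR-30a the 5p arm made up 10 of 75 counts in san:san (13.3%), against 0 of 10 in WT, which allows up to 30.0%.

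**Figure D3:**
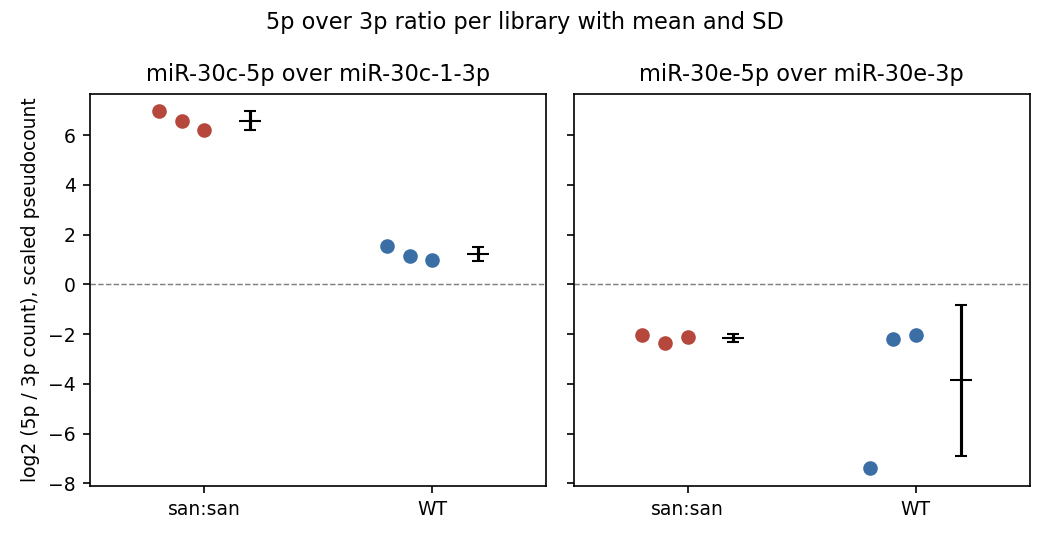
Log2 ratio of 5p to 3p counts in each library (points), with the pseudocount scaled by library total, and the mean and SD beside them (n = 3 per genotype). For miR-30c the san:san libraries lie between 6.20 and 6.96 and the WT libraries between 0.99 and 1.54, and for miR-30e all libraries but WT replicate 1 lie between -2.34 and -2.02.

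Summed over the members, 5p arms made up 70.0%, 71.5% and 75.1% of miR-30 counts in san:san, with 95% Wilson intervals from 66.4% at the lowest to 79.2% at the highest. In WT they made up 27.8%, 51.9% and 50.7%, with intervals from 15.8% to 62.7%. The genotypes did not overlap, and WT replicate 1, with 36 member counts, was the lowest. The whole set of members held 0.346%, 0.363% and 0.297% of all counts in san:san, against 0.289%, 0.267% and 0.317% in WT. These shares overlapped, at 0.335% ± 0.0346 in san:san and 0.291% ± 0.0253 in WT (SD, n = 3 each). With the 5 most abundant miRNAs left out of the totals, the shares were 0.551%, 0.599% and 0.525% in san:san, against 0.381%, 0.346% and 0.425% in WT, and did not overlap, so the separation depends on the total used.

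Within the counts of the 5p members, which leave out miR-30b-5p, miR-30c-5p took the largest share in every library. It held 84.7%, 85.6% and 89.0% in san:san, against 90.0%, 72.5% and 74.3% in WT. The 90.0% of WT replicate 1 is 9 of 10 counts (95% Wilson interval 59.6% to 98.2%), and with it the genotypes overlapped. The means were 86.4% ± 2.25 in san:san and 78.9% ± 9.63 in WT (SD, n = 3 each; exact permutation p = 0.4, two-sided). The difference of 7.50 percentage points was 13.0 without WT replicate 1, when the genotypes did not overlap, and 4.28 without WT replicate 2. With miR-30b-5p counted as well, miR-30c-5p held 71.8%, 71.7% and 76.0% in san:san, against 81.8%, 54.7% and 55.3% in WT.

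miR-30d-5p took a smaller part of the 5p member counts in san:san, although its level did not pass the test. It held 4.43%, 5.76% and 3.56% of the 5p counts in san:san, against 10%, 15.0% and 11.4% in WT. The values did not overlap. The means were 4.58% ± 1.11 in san:san and 12.1% ± 2.58 in WT (SD, n = 3 each; two-sided exact permutation p = 0.1, the smallest possible). The WT shares rest on 1, 6 and 4 counts, and the 95% Wilson interval of each overlaps that of the highest san:san library, 3.90% to 8.42%. With miR-30b-5p counted as well, the mean shares of miR-30d-5p were 3.87% in san:san and 9.64% in WT. miR-30e-5p held 8.18% ± 1.57 in san:san and 8.93% ± 7.78 in WT (exact permutation p = 1, two-sided). miR-30a-5p held 10 of 1149 counts in san:san (0.870%), against 0 of 85 in WT, which allows up to 3.53%.

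**Figure D4:**
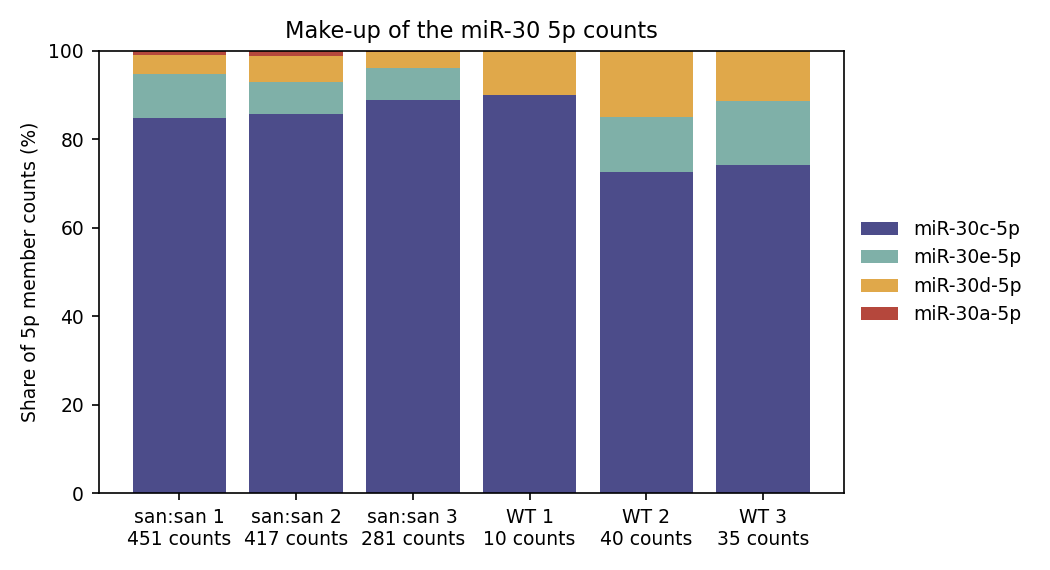
Share of each 5p member in the summed 5p member counts (vertical axis, percent) of each library, with that sum under each bar. miR-30c-5p holds 84.7% to 89.0% in san:san and 72.5% to 90.0% in WT, and the WT bars rest on 10 to 40 counts.

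Other miRNAs known, from human or mouse cells, for repressing autophagy genes were described from a list chosen with earlier results of these data known. It held 13 names, 9 of them tested. Of these, 4 were higher, 0 were lower and 5 did not pass, with a median log2 fold change of 0.99 against 0.30 over all tested miRNAs. Over all 254 tested miRNAs 34.6% were higher and 29.5% lower, so the 4 of 9 that were higher are read against that share. The raised names were miR-142a-3p, tied to ATG16L1 (log2 2.65 ± 0.33, edgeR adjusted p = 1.12e-05), miR-93-5p (1.63 ± 0.30, 2.86e-04), miR-20a-5p (1.06 ± 0.35, 0.0156) and miR-17-5p (0.99 ± 0.25, 0.00336), the last 3 tied to ULK1. Among those that did not pass were miR-181a-5p, tied to ATG5 (0.38 ± 0.30, 0.281), and miR-106b-5p (0.17 ± 0.47, 0.760). These names are mostly miR-17-type miRNAs with related seeds and clusters, and miR-142a-3p is a marker of blood cells.

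The miRNAs outside the family whose pattern was most like the summed 5p members were miR-144-5p (Pearson r = 0.994), miR-19b-3p (0.983) and miR-93-5p (0.983). The likeness is that of log2 CPM over the 6 libraries, among 102 names with at least 10 counts in each. All share the libraries, their depth and the split by genotype, so r describes these libraries only.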

How the data were processed

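Small RNA counts of macrophage exosomes were analysed for 3 Roquin-1 san:san and 3 WT libraries, grouped by sample title. The authors deposited raw read counts, 1 row per mature miRNA name. Per the submitters' processing notes the genome build was mm9. For the aligner, trimming and miRNA release, nothing is given in the sources used here. The deposited per-sample scaled columns were not used, and 0 columns came from outside the series. Coordinates and sequences are from RefSeq on GRCm38.p6 and were not used to place the authors' reads.

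edgeR 4.0.16 (R 4.3.3) was fitted to all names: filterByExpr with a minimum count of 10, TMM scaling, robust quasi-likelihood test, genotype as the only term, Benjamini-Hochberg adjustment over 254 names, threshold 0.05. Arm ratios were tested with limma 3.58.1 over 58 hairpins with at least 20 counts in every library. Shares were compared by exact permutation. Alternatives were other scalings, no filter, DESeq2 1.42.0, 20 thinned draws, merged identical rows, a replicate block, each library left out and other pseudocounts. The procedures were checked on simulated counts. Named miRNAs are the members, other miR-30 names, list members and the 3 nearest patterns. The members and lists were chosen with earlier results of these data known.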

Additional observations from a re-analysis of the deposited data

How the results depend on the processing

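miR-30c-5p was higher and passed in all 15 alternatives (log2 1.06 to 1.79, adjusted p 7.07e-09 to 0.00228), and miR-30c-1-3p was lower and passed in the 14 alternatives that tested it (log2 -5.24 to -4.26, adjusted p 2.94e-10 to 2.40e-04). Where the count filter was used, miR-30c-1-3p met it through WT counts alone, so a low value in WT would have left it untested. In libraries thinned to 12447 counts miR-30c-1-3p was too low to test, so 0 members were lower there. miR-30c-5p passed in 20 of 20 thinned draws. With a library left out, 1 member was higher and 1 lower each time. miR-30e-3p passed in 0 of 15 alternatives, and miR-30e-5p and miR-30d-5p each in 0 of the 11 that tested them. With a san:san library left out, and in thinned libraries, miR-30e-5p and miR-30d-5p did not meet the count filter. The sign of miR-30d-5p turned with no filter (0.12), with the replicate number as a block (0.039) and without WT replicates 2 (0.13) or 3 (0.02), and that of miR-30e-3p with total counts (-0.27), in thinned libraries (-0.11) and without WT replicate 2 (-0.040), with a range of -0.040 to 0.59 over the libraries left out. miR-30a-3p turned to -0.22 with total counts. The miR-30e arm difference ranged from -0.059 to 2.72 with a library left out (limma, pseudocount rescaled to the libraries kept). That of miR-30c ranged from 5.16 to 5.54, computed otherwise, as a difference of means with the pseudocount of all libraries. The limma value of miR-30c without WT replicate 1, 5.62, is thus not part of that range. The added edgeR test of arm by genotype gave 6.30 for miR-30c and 0.55 for miR-30e, and a pseudocount of 1 count gave 0.65 for miR-30e. The difference in the miR-30c-5p share ranged from 4.28 to 13.0 percentage points with a library left out. The miR-30e-5p share of 5p counts differed by 0.23 percentage points (san:san minus WT) once miR-30b-5p was included, against -0.75 without it, and by -5.22 to 1.93 with a library left out. For these changes of sign the cause was not tested. Whether the replicate numbers pair the samples could not be settled with 3 libraries a group. Same-numbered libraries had correlations of 0.09, -0.06 and 0.24 in their deviations from the group means. Those of differently numbered libraries ran from -0.19 to 0.14. With the number as a block 1 member was again higher (miR-30c-5p, log2 1.68) and 1 lower (miR-30c-1-3p, -4.50), and the miR-30e arm difference was 1.70 (adjusted p = 0.333). Depth limits the WT values: the WT libraries held 36, 77 and 69 member counts.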
